A study of Mus musculus with 2 samples.

Results

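The nuclear genes for the subunits of respiratory complexes I, III, IV and V, and the assembly factors that share their names, were examined in single cells of the mouse cornea. Members were all genes in the count table whose symbol began with Nduf, Uqcr, Cox and a digit, or Atp5, with at least 20 UMIs (unique molecular identifiers, each marking 1 captured transcript) over all cells. In all, 96 genes had such a name and 94 of the 20198 genes in the table passed. Cox7b2 with 6 UMIs and Cox8c with 5 UMIs were just outside the limit, and Cox6a2 with 87 UMIs and Cox4i2 with 170 UMIs were the members closest to it. The 94 comprised 44 genes of complex I, 8 of complex III, 26 of complex IV and 16 of complex V. Ndufa4 was counted with complex IV, where its protein is now placed. Complex V subunits that the table lists under symbols of another form are not members.

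The study set unwounded corneas (UW) against corneas taken 24 h after a wound (W). Each library pooled 8 corneas from 4 male mice aged 6 to 8 weeks. In W the central epithelium inside a 2.5 mm trephine mark had been scraped away with a rotating burr, and UW corneas were not wounded. No strain or genetic change is given in the sources used here. After enzyme digestion of the epithelium and of the remaining tissue, the cells of each condition were combined into 1 droplet library. Whole corneas were taken, so cells near and far from the wound cannot be told apart. With 1 library per condition there is no replicate: every interval below covers counting error only, no p-value is given, and the condition cannot be told apart from the library.

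The UW library held 16450 cells with a median of 22014 UMIs, and the W library 12417 cells with a median of 20290 UMIs. They shared 52 cell barcodes. Cells were compared within the clusters deposited with the data. Cluster 0 was corneal stromal cell-like (5 of 6 fixed markers at least 2 times the level in all other cells). Among the epithelial clusters, 3 was basal-like (4 of 5 markers), 4 suprabasal-like (3 of 4), 5 conjunctival-like (5 of 5), 6 and 7 superficial-like (5 of 6 each), 8 mitotic-like (5 of 5, with 5 of 5 S phase markers as well) and 11 S phase-like (5 of 5). Basal markers also reached this level in clusters 11 (4 of 5) and 8 (3 of 5), so these names do not set them apart from basal cells. Epithelial clusters 1 and 2 matched too few markers of any layer for a name. Cluster 9 carried S phase markers (5 of 5, as clusters 8 and 11 did) beside 2 of 4 limbal markers and is called by its number. Cluster 10 carried stromal markers (5 of 6) and corneal endothelial markers (4 of 5) and was led by Penk, Myoc and Fmod, so it is left unnamed. Clusters 13 (neutrophil-like), 14 and 15 (monocyte and macrophage-like) and 16 (T cell-like) had 710, 354, 251 and 215 cells in W and at most 7 in UW, so they are described in W only. A total of 12 clusters had at least 50 cells in both libraries, 10 of them epithelial. Cells also carried free RNA from other cells: Krt12, a corneal epithelial keratin, was at 1554 counts per 1000000 UMIs of the cluster (CPM) in stromal cluster 0 of UW and at 736 CPM in W. How much of any difference comes from shifts of cell states inside a cluster was not tested.

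Oxidative phosphorylation takes place in the inner mitochondrial membrane. Complexes I, III and IV pass electrons from NADH to oxygen and pump protons, and complex V, the ATP synthase, uses the proton gradient to make ATP. All 4 complexes mix subunits made from nuclear genes with subunits made from the mitochondrial genome, whereas complex II is wholly nuclear and pumps no protons. The corneal epithelium is a thin layered tissue that renews from its limbal rim, and its cells move and divide to close a scrape.

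The summed level of the 94 genes was higher in W than in UW in all 12 clusters. In epithelium the mean log2 ratio of W over UW was 0.45 (SD 0.14 over 10 clusters, range 0.22 to 0.64). The largest differences were in cluster 9, from 15385 CPM (95% counting interval 15297 to 15474) to 23999 CPM (23938 to 24060), and in superficial-like cluster 7, from 7607 to 11895 CPM. The log2 ratio was 0.64 in both, but it depended on the scaling in cluster 7, where it was 0.24 with TMM factors (trimmed mean of M-values) and 0.20 with median-of-ratios size factors, against 0.67 and 0.69 in cluster 9. With CPM the smallest of the epithelial clusters was that of suprabasal-like cluster 4, from 15980 to 18617 CPM. With TMM factors it was that of cluster 3, at 0.20. Conjunctival-like cluster 5 went from 17197 to 24183 CPM and held the highest level in both libraries. Stromal cluster 0 went from 14524 to 17651 CPM, a log2 ratio of 0.28. Cluster 10 went from 14243 to 16097 CPM, a log2 ratio of 0.18. Single cells were also compared. In cluster 9 the median share of a cell's UMIs taken by these genes was 1.51% in UW (quartiles 1.35 and 1.67) and 2.38% in W (2.19 and 2.57), so the quartile ranges did not overlap. In suprabasal-like cluster 4 the quartile ranges overlapped, at 1.59% (1.46 and 1.72) against 1.81% (1.47 and 2.05).

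The 13 mitochondrially encoded subunits are the partners of the nuclear ones in the same complexes, and their sums gave another pattern. Their mean log2 ratio over the epithelial clusters was -0.10 (range -0.44 to 0.30), with 5 of 10 clusters higher in W with CPM. These 5 include clusters 1, 6 and 7, at 0.03, 0.01 and 0.07, which turned to -0.09, -0.17 and -0.34 with TMM factors. In cluster 9 they were at 43756 CPM in UW and 32425 CPM in W, and in S phase-like cluster 11 at 33380 and 24602 CPM, both lower in W while the nuclear sum was higher. In cluster 4 they were higher in W, from 18921 to 23360 CPM. The sign of their ratio in clusters 1, 6 and 7 depended on the scaling of the libraries and is not read. The number of nuclear UMIs per mitochondrially encoded UMI therefore went from 0.352 to 0.740 in cluster 9 and from 0.471 to 0.928 in cluster 11. In cluster 4 it went the other way, from 0.845 to 0.797, the only one of the 12 clusters in which it was lower in W. Cells above 10% mitochondrial UMIs are absent from the table (highest 9.99% in both libraries), and this limit acts on the mitochondrially encoded genes themselves. Median UMIs per cell also differed between the libraries, for instance 13944 and 24009 in cluster 9 and 21461 and 35514 in cluster 11, and the part of depth in these values was not tested.

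**Figure D1:**
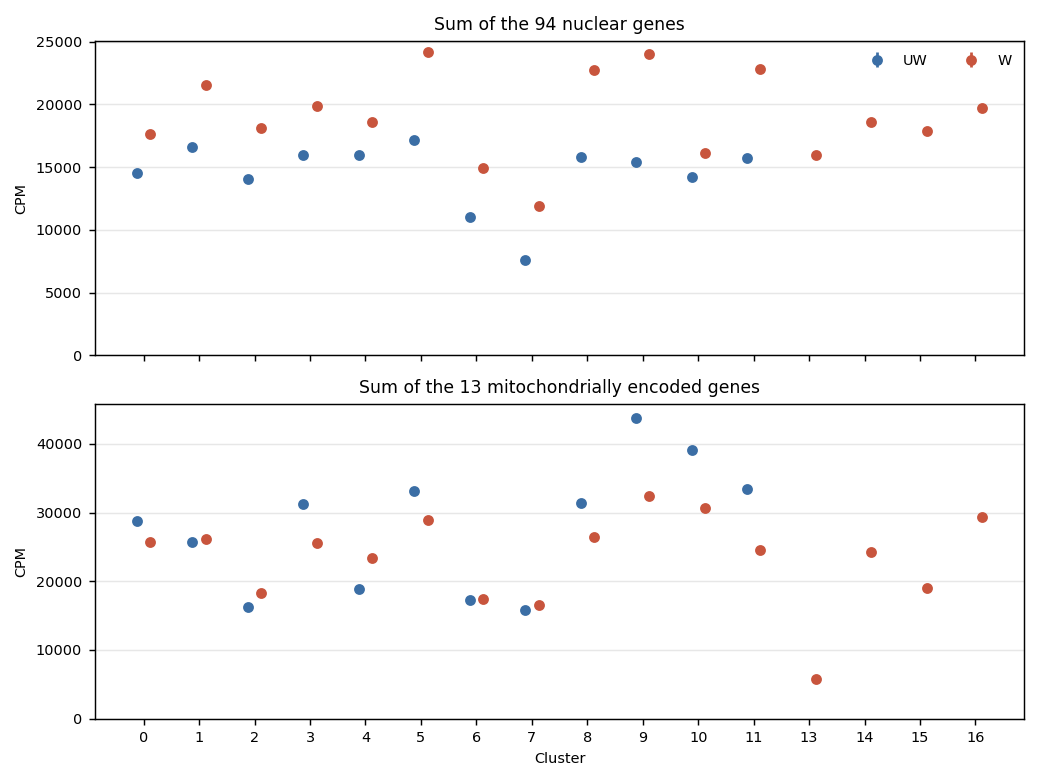
Summed CPM of the 94 nuclear genes (top) and of the 13 mitochondrially encoded genes (bottom) in each cluster of the UW (blue) and W (red) libraries, with 95% counting intervals that are smaller than the points. The nuclear sum is higher in W in all 12 clusters with both libraries, whereas the mitochondrially encoded sum is not, and neutrophil-like cluster 13 stands low in the bottom panel at 5697 CPM.

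The sums of all 4 complexes were higher in W. Over the epithelial clusters the mean log2 ratio of the summed subunits was 0.41 for complex I, 0.41 for complex III, 0.56 for complex IV and 0.39 for complex V, each positive in 10 of 10 clusters under each scaling tried. Much of the complex IV value came from Ndufa4. Without this gene, a check added after seeing the data, the mean was 0.21, the smallest of the 4, and positive in 9 of 10 clusters. The remainder was at 4219 and 4295 CPM in UW and W in cluster 3 and at 3687 and 3657 CPM in cluster 4. It still held Cox7a2l, a supercomplex factor with a mean of -0.91, and a sum without both genes was not made. The sign of that remainder changed with the scaling in clusters 1, 3, 4 and 7. Without Ndufa4, which alone gave 1265286 of the members' UMIs, the mean for all members was 0.35 and still positive in 10 of 10 clusters. In stromal cluster 0 the same sums stood at 0.23, 0.30, 0.29 and 0.37. The 17 assembly factors that carry these names had a mean of 0.32 in epithelium, and in cluster 0 the sign of their ratio changed with the scaling.

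Single genes were compared with the whole transcriptome, since many genes differed between the libraries. A gene was counted as higher or lower in W when its log2 ratio, after adding 0.5 UMI to each sum, was at least 0.5 in size, among genes with at least 20 UMIs in the pair of sums. For the mean over the epithelial clusters 35 of 90 members tested were higher (38.9%, where 22.2% of all genes tested were) and 3 were lower (3.33%, where 20.8% of all genes were). With TMM factors 23 were higher, 25.6% of the members against 18.7% of all genes. At a log2 limit of 1 3 members were higher (3.33%, where 8.94% of all genes were). The median log2 ratio was 0.40 for the members and 0.00 for the 10062 genes tested. In each of the 12 clusters the share of members that was lower was under that of all genes.

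Clusters 9, 7, 11, 8 and 5 had the largest excess of higher members over all genes. In cluster 9, 59 of 92 members were higher (22.0% of all genes) and 2 lower (26.6%). In superficial-like cluster 7, 61 of 90 were higher (40.4% of all genes) and 1 lower (17.3%). The median of all genes was 0.27 there, and with TMM factors, which brought it to -0.13, 25 members were higher (26.1% of all genes) and 3 lower, so the excess in cluster 7 was nearly gone. With size factors 19 were higher, 21.1% of the members against 24.7% of all genes, so it was reversed. In cluster 9 the members that were higher came to 63 with TMM factors (22.9% of all genes) and 64 with size factors (24.0%). In S phase-like cluster 11, 48 of 92 were higher (27.8% of all genes) and 2 lower (23.7%). In mitotic-like cluster 8, 42 of 92 were higher (23.4% of all genes) and 3 lower (26.4%), and in conjunctival-like cluster 5, 42 of 92 were higher (25.2%) and 2 lower (22.6%).

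In the other clusters the share of higher members was closer to that of all genes. In superficial-like cluster 6, 34 of 91 were higher (31.0% of all genes) and 2 lower (23.9%). With TMM factors 19 were higher there, 20.9% of the members against 24.9% of all genes, and with size factors 26, 28.6% against 28.8%. In basal-like cluster 3, 30 of 92 were higher (28.7% of all genes) and 4 lower (24.9%), and with TMM factors 17 were higher, 18.5% of the members against 24.4% of all genes. In cluster 1, 25 of 91 were higher (28.6% of all genes) and 3 lower (24.9%), with TMM factors 19 and 8 (24.0% and 30.0% of all genes). In cluster 2, 21 of 91 were higher (23.3%) and 4 lower (31.1%), and with size factors 40 were higher, 44.0% of the members against 30.0% of all genes. In suprabasal-like cluster 4, 16 of 91 were higher, under the background of 24.0%, and 6 lower (31.3%), with size factors 21 and 3 (29.0% and 24.4% of all genes). In stromal cluster 0, 16 of 94 were higher (15.2% of all genes) and 5 lower (26.7%), and with size factors 26 and 2 (18.2% and 22.2% of all genes). In cluster 10, 7 of 92 were higher, under the background of 12.6%, and 6 lower (20.9%). With size factors 16 were higher, 17.4% of the members against 15.2% of all genes, and 3 lower, so the order of the shares turned.

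**Figure D2:**
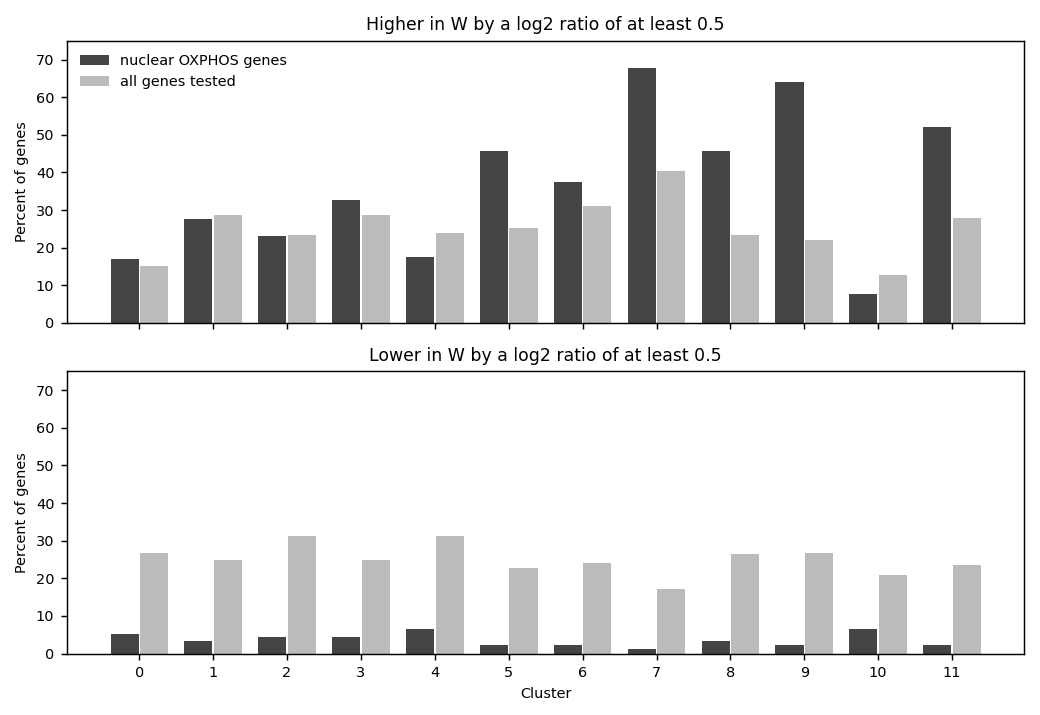
Percent of the nuclear oxidative phosphorylation (OXPHOS) genes tested (dark bars) and of all genes tested (light bars) that were higher (top) or lower (bottom) in W by a log2 ratio of at least 0.5, for each of the 12 clusters. The dark bars exceed the light ones most in clusters 9 and 7 of the top panel (for cluster 7 with CPM only) and lie under them in every cluster of the bottom panel.

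Complex I, the NADH dehydrogenase, had 7 core subunits and 29 accessory subunits among the members. Over the epithelial clusters the median log2 ratio was 0.41 for the core subunits (range 0.14 to 0.69) and 0.48 for the accessory ones (-0.29 to 0.97), and 16 of the 36 were past the limit upward (44.4%, where 22.2% of all genes were) and 0 downward (20.8% of all genes). With TMM factors 7 were, 19.4% against 18.7% of all genes, so the upward count was then near the background. The core subunit with the largest ratio was Ndufs7, at 0.69, and the one with the smallest was Ndufs1, the large iron-sulfur subunit, at 0.14. Ndufb7, an accessory subunit of the membrane arm, had the largest ratio of the 36, with a mean of 0.97. It went from 89.8 to 187 CPM in basal-like cluster 3 and from 77.9 to 191 CPM in cluster 9, and its ratio was at least 0.5 in 11 of 12 clusters. Ndufab1, the mitochondrial acyl carrier protein, which is also part of fatty acid synthesis in mitochondria, went from 12.2 to 40.4 CPM in cluster 7 and from 151 to 172 CPM in cluster 0. Ndufb11, an accessory subunit encoded on the X chromosome, went the other way, with a mean of -0.29 and, with CPM, a lower value in W in 11 of 12 clusters, of which cluster 10 was at 0.00 with size factors. Ndufb9 had the most UMIs of the complex I members, 172944, and the assembly factor Ndufaf5 the fewest, 2319.

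The complex I assembly factors, which are not part of the finished enzyme, did not share 1 pattern. Ndufaf7 was lower in W in 10 of 12 clusters, with an epithelial mean of -0.35. Ndufaf2 and Ndufaf4 had their largest ratios in the superficial-like clusters. Ndufaf2 went from 1.54 to 6.11 CPM in cluster 7 and from 4.25 to 10.7 CPM in cluster 6, against 17.1 to 25.7 CPM in basal-like cluster 3. Ndufaf4 went from 0.386 to 1.93 CPM in cluster 7 and from 18.1 to 22.4 CPM in cluster 3. In UW the superficial-like clusters thus held far less of both than the basal-like cluster, and the gap was smaller in W. These are low values, and Ndufaf5 had only 4 UMIs in UW and 8 UMIs in W in cluster 7, too few to compare.

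Complex III, the cytochrome c reductase, had 8 members, of which 2 were past the limit upward in epithelium and 0 downward, a share near the 22.2% of all genes that were higher. Uqcrq, a small subunit next to cytochrome b, was one of 3 members at or past 0.5 in all 12 clusters, with ratios from 0.61 to 1.50. It lay between 63.7 and 139 CPM in the 12 clusters of UW and between 154 and 319 CPM in those of W, so the libraries did not overlap across clusters. Uqcr11 had a mean ratio of 0.82. Uqcrh, the hinge protein and the complex III member with the most UMIs (243378), had a mean of 0.01, which was -0.09 with TMM factors, and went from 459 to 391 CPM in cluster 3 and from 359 to 431 CPM in cluster 0. Uqcrfs1, the Rieske iron-sulfur protein and the member with the fewest UMIs (68378), had a mean of 0.31. The 8 members thus had mean ratios from 0.01 to 1.18.

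Complex IV, the cytochrome c oxidase, held both the largest and the most negative ratios. Ndufa4 (chr6:11900292-11907497, minus strand, GRCm38), a small subunit first assigned to complex I, had the most UMIs of all members over all cells and was higher in W in all 12 clusters. In UW it was at 1218 CPM in cluster 1, 736 in cluster 3, 645 in cluster 8, 461 in cluster 9 and 726 in cluster 11. In W the same clusters stood at 3502, 2523, 2714, 1545 and 3095 CPM. The log2 ratio was 2.09 in cluster 11 and 2.07 in cluster 8. In clusters 2, 5 and 6, where Ndufa4 was already at 2257, 2180 and 1890 CPM in UW, it reached 3992, 3445 and 3298 CPM in W, ratios of 0.82, 0.66 and 0.80. The epithelial clusters spanned 461 to 2257 CPM in UW and 1545 to 3992 CPM in W. Stromal cluster 0 went from 317 to 631 CPM and cluster 10 from 324 to 628 CPM. Free epithelial RNA was present there in both libraries. Krt12 was lower in W in cluster 0 but also within epithelium, with a mean of -0.78, so it does not give the amount of free Ndufa4 RNA, whose part was not tested. In the immune clusters of W Ndufa4 was at 1391 CPM in cluster 13, 1342 in cluster 14, 729 in cluster 15 and 1095 in cluster 16. The 6 corneal epithelial markers summed to 10324, 12829, 3423 and 6085 CPM in these clusters, against 37274 CPM in cluster 3, and the part of free epithelial RNA in the immune values of Ndufa4 was not tested.

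Cox7a2l (chr17:83501918-83517330, minus strand, GRCm38), whose protein joins complexes III and IV into supercomplexes, was the member with the lowest epithelial mean, -0.91. It went from 762 to 256 CPM in basal-like cluster 3 (log2 ratio -1.57), from 584 to 213 CPM in cluster 1, from 735 to 308 CPM in cluster 11 and from 322 to 123 CPM in cluster 4. In superficial-like cluster 7, where it was lowest in UW, it was at 73.4 CPM (counting interval 70.6 to 76.2) in UW and 70.8 CPM (66.1 to 75.8) in W, which overlap, while the log2 ratio was -0.45 with TMM factors and -0.50 with size factors. In clusters 0 and 10 the values were close, 271 and 291 CPM in cluster 0 and 287 and 279 CPM in cluster 10, where the sign changed with the scaling. Its share of the UMIs of the family formed by Cox7a1, Cox7a2 and Cox7a2l went from 71.6% to 37.4% in cluster 3 and from 64.5% to 33.3% in cluster 1, against 47.7% and 47.3% in cluster 0. Cox7a2, the common subunit of this family, was higher in W in cluster 3, at 426 against 301 CPM. Cox7a1, the form known from heart and muscle, was at most 7.52 CPM in the clusters compared.

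Cox6a1, the widely used form of subunit VIa, was also lower in W, with a mean of -0.55 in epithelium, -0.54 in cluster 0 and -0.54 in cluster 10. It went from 159 to 86.7 CPM in cluster 4 and from 119 to 64.2 CPM in cluster 7. In cluster 9 the intervals overlapped, at 130 and 131 CPM. The other form, Cox6a2, known from muscle, was low in epithelium, and was at 1.33 CPM in cluster 0 of W and at 2.98 CPM, from 11 UMIs, in cluster 14. Of the 14 complex IV genes other than assembly factors tested in all epithelial clusters, 5 were past the limit upward (35.7%, where 22.2% of all genes were). Downward there were 2 (14.3%, where 20.8% of all genes were). The first count includes Ndufa4l2, a relative of a subunit gene, and the second Cox7a2l, a supercomplex factor. With TMM factors 3 were upward, 21.4% against 18.7% of all genes. In cluster 10, 2 of 15 were upward (13.3%, where 12.6% of all genes were) and 2 downward (13.3%, where 20.9% of all genes were). Cox5b had ratios of at least 0.5 in 10 of 12 clusters, and Cox6b1 went from 272 to 470 CPM in cluster 9. The epithelial means of Cox4i1, Cox6c, Cox7c and Cox8a, at 0.24, 0.27, 0.34 and 0.16, were under the limit. Among the assembly factors, Cox17, the copper chaperone of complex IV, went from 21.5 to 48.1 CPM in cluster 3, and reached 167 CPM in neutrophil-like cluster 13 of W. Cox16 and Cox15 had ratios of -0.67 and -0.52 in stromal cluster 0.

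**Figure D3:**
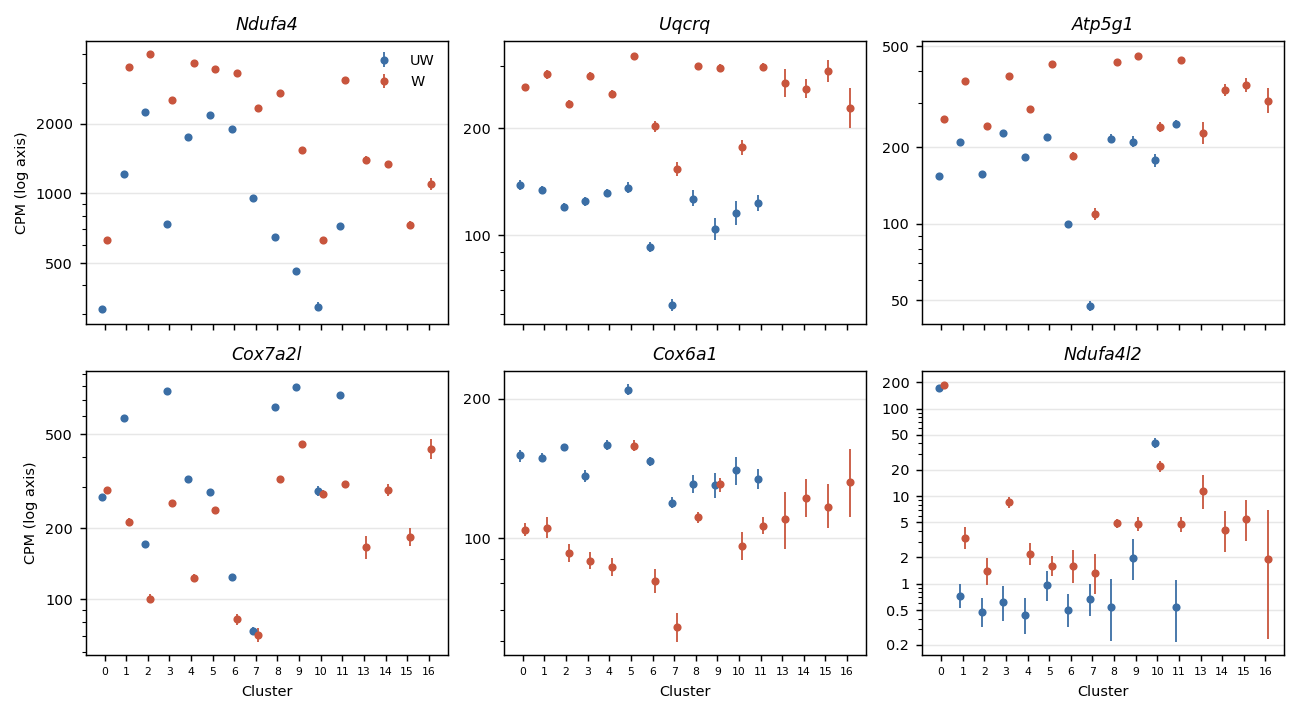
CPM of Ndufa4, Uqcrq, Atp5g1, Cox7a2l, Cox6a1 and Ndufa4l2 in each cluster on log axes, for the UW (blue) and W (red) libraries, with 95% counting intervals. Ndufa4, Uqcrq and Atp5g1 are higher in W in all 12 clusters with both libraries, Cox7a2l and Cox6a1 are lower in most epithelial clusters, and Ndufa4l2 is highest in stromal cluster 0, at 170 and 185 CPM.

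Some members come as isoform genes, and their use differed between cell types. Ndufa4l2 (chr10:127514967-127517154, plus strand, GRCm38), a relative of Ndufa4 that is known as a target of hypoxia signaling, was a stromal gene here. It was at 170 CPM in UW and 185 CPM in W in cluster 0, and at 40.1 and 21.9 CPM in cluster 10. With cells thinned to 5000 UMIs, 49.5% of cluster 0 cells in UW (95% exact interval 47.5 to 51.6) and 40.7% in W (38.4 to 43.1) had a UMI of Ndufa4l2. Before thinning the shares were 69.2% and 63.2%, at median depths of 11853 and 17588 UMIs. The share of cells was thus lower in W while the CPM was not, and no order is read from it.

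In epithelium Ndufa4l2 was at most 1.97 CPM in UW, a level at which free stromal RNA matters. Dcn, a stromal proteoglycan gene that epithelium should lack, served as the measure of that RNA. In UW there were 4.20 UMIs of Ndufa4l2 per 1000 UMIs of Dcn in stromal cluster 0, and between 1.55 and 5.65 in 9 of the 10 epithelial clusters. Those 9 values in UW are read as background. Cluster 9 stood higher in UW, at 8.77, from 15 UMIs of Ndufa4l2. Cluster 10, also rich in Dcn, stood at 0.907 in UW and 0.757 in W. Free RNA from both clusters would thus have a lower value than cluster 0 alone. In W cluster 0 was at 8.39, and clusters 2, 6 and 7 stood at 6.85, 7.49 and 6.66. Clusters 1, 4 and 5 stood slightly above cluster 0, at 11.3, 10.4 and 9.42. Basal-like cluster 3 stood at 41.0, mitotic-like cluster 8 at 29.0, S phase-like cluster 11 at 27.9 and cluster 9 at 25.7 UMIs per 1000 of Dcn. In these clusters Ndufa4l2 was at 8.51, 4.89, 4.77 and 4.78 CPM. After thinning, 2.89% of cluster 3 cells in W had a UMI of Ndufa4l2 (1.88 to 4.24), against 0.351% in UW (0.129 to 0.763).

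Cox4i2, the form of subunit IV known from lung and from cells that sense oxygen, and Cox6b2, known from testis, were both highest in cluster 10. Cox4i2 was at 8.41 CPM in UW and 8.65 CPM in W there, and at most 0.493 CPM in cluster 0. Its cells with a UMI were 3.84% in UW (2.39 to 5.81) and 4.35% in W (2.89 to 6.27) of thinned cluster 10 cells, against 0.0863% and 0.117% in cluster 0. Cox6b2 was at 21.5 and 17.7 CPM in cluster 10, against 1.09 and 1.82 CPM in cluster 0. Summed pericyte markers were at 2.14 CPM in cluster 10 and 0.181 CPM in cluster 0, and vascular endothelial markers at 26.2 CPM in cluster 10 and 142 CPM in cluster 0. Their part in these values was not tested. For both genes the counting intervals of UW and W overlapped in cluster 10.

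AA467197 encodes a further relative of Ndufa4 that can take its place in complex IV. It has no name of the kind searched and was chosen after its values were seen. It was at 2588 CPM in superficial-like cluster 7 of UW and 3410 CPM in W, a log2 ratio of 0.40 that was -0.01 with TMM factors. In superficial-like cluster 6 it went from 311 to 1052 CPM. In cluster 7 it gave 73.1% of the UMIs of Ndufa4, Ndufa4l2 and AA467197 together in UW and 59.3% in W, against 14.1% and 24.2% in cluster 6 and 2.17% and 1.50% in cluster 3. Cluster 7 also had the lowest summed level of the 94 genes.

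Complex V, the ATP synthase, had 15 subunit genes among the members, 6 of them past the limit upward in epithelium (22.2% of all genes) and 0 downward (20.8%). Atp5e, the epsilon subunit of the catalytic head, was at or past 0.5 in all 12 clusters, and went from 236 to 539 CPM in cluster 2 and from 312 to 488 CPM in cluster 0. The membrane ring of c subunits is encoded by 3 genes that give the same mature protein, and these differed. Atp5g1 went from 228 to 381 CPM in cluster 3 and from 211 to 459 CPM in cluster 9, with an epithelial mean of 0.88. Atp5g3 had a mean of 0.60 and Atp5g2 of 0.06, which was -0.04 with TMM factors. In cluster 3 the share of Atp5g1 among the UMIs of the 3 genes went from 21.7% to 31.7%, and that of Atp5g2 from 61.6% to 47.9%. In stromal cluster 0 the share of Atp5g1 went from 24.2% to 29.6%. Atp5g2 had the most UMIs of the complex V members, 301416, and Atp5s, whose protein is only loosely tied to the enzyme, the fewest, 2765. Atp5s, which is not among the 15 subunits, was lower in W in 11 of 12 clusters, with an epithelial mean of -0.55, and went from 7.66 to 4.22 CPM in cluster 0. With Cox7a2l and Cox6a1 it makes up the 3 members counted as lower in epithelium. Atp5l, a small membrane subunit, had an epithelial mean of -0.16, with 469 and 349 CPM in cluster 1. The column Atp5o.1 carries a name made unique by the software, and GENCODE lists 2 overlapping loci named Atp5o, so its reads may be split.

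With CPM, 31 of the 89 members tested in all 12 clusters were higher in W in every cluster and 0 were lower in every cluster. Among the 9709 genes tested in all 12 clusters, 1163 were higher in every cluster (12.0%) and 1387 lower (14.3%). A ratio of at least 0.5 in at least 6 clusters together with the same sign in all 12 was found for 21 members, all of them higher in W. Of all 9709 genes, 9.93% passed this rule as higher and 11.4% as lower. Atp5e, Ndufa4 and Uqcrq passed in 12 clusters, Atp5g1, Ndufb7 and Uqcr11 in 11, and Atp5j, Atp5k, Cox17, Cox5b and Ndufb2 in 10. The 21 include Ndufs8 and Ndufv1, core subunits of complex I, and hold neither Ndufs1 nor Uqcrc1, a large core protein of complex III, which was higher in W in 7 of 12 clusters.

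**Figure D4:**
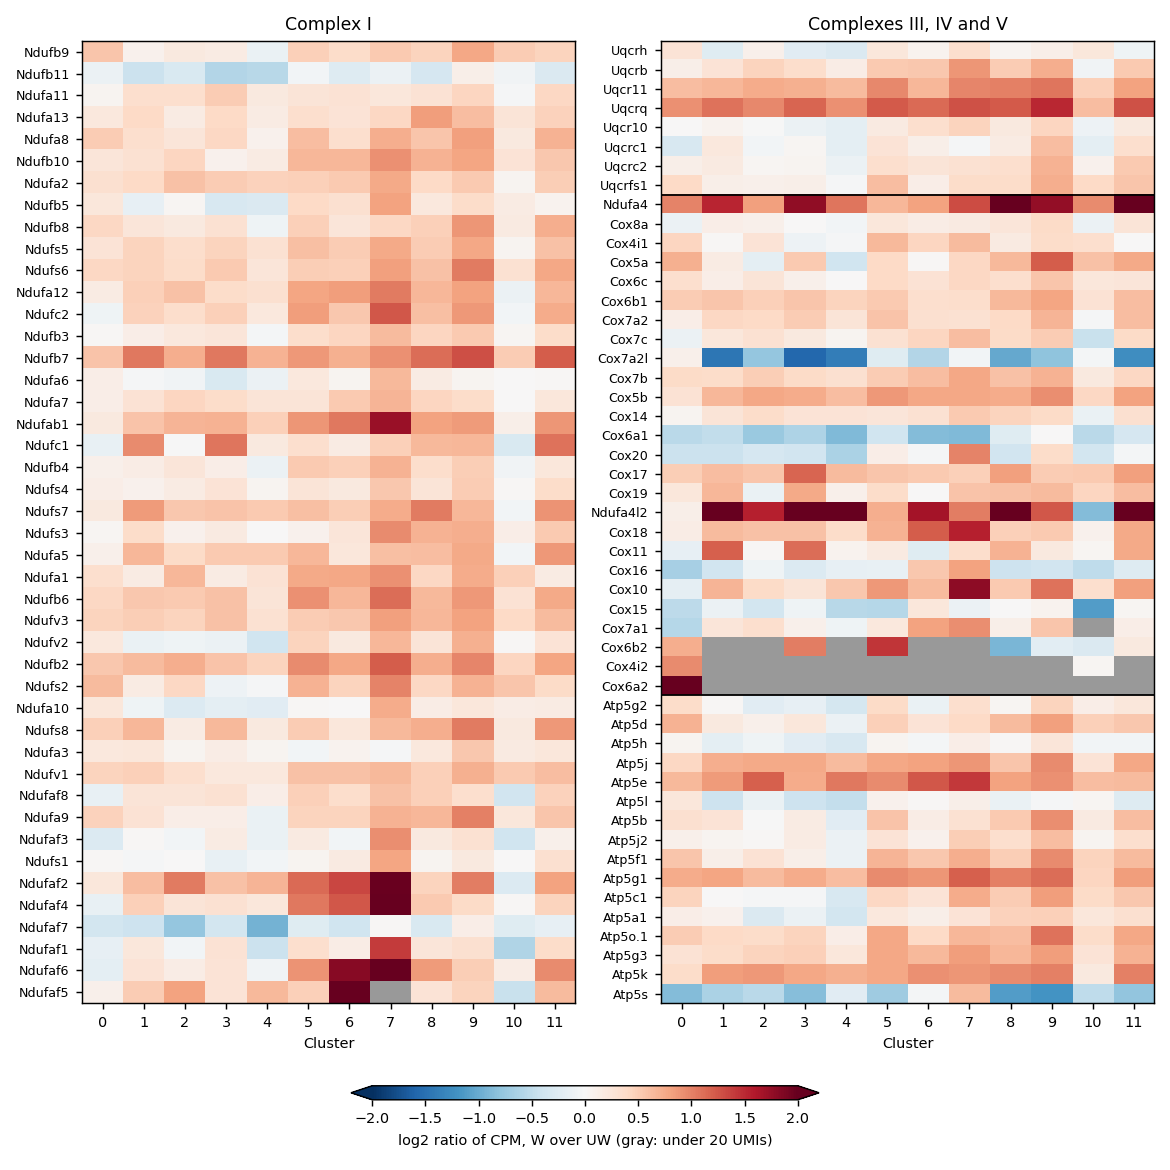
Log2 ratio of CPM, W over UW, of the 94 genes (rows, by complex and then by total UMIs) in the 12 clusters with both libraries (columns), red where higher in W, blue where lower, and gray where the pair held under 20 UMIs. Most rows are red, Cox7a2l and Cox6a1 are blue in most epithelial clusters, and cluster 10 is the palest column.

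Cell types were also compared within 1 library. In UW, stromal cluster 0 over basal-like cluster 3 had 18 of 92 members higher (45.6% of all genes) and 13 lower (23.2%). The median of all genes in this contrast was 0.37 with CPM and -0.02 with TMM factors, and with TMM factors 4 members were higher (35.5% of all genes) and 37 lower (33.6%). Apart from Ndufa4l2, at a log2 ratio of 8.09, the members most on the stromal side were Cox11 at 1.60 and Ndufc1 at 1.48, and those most on the epithelial side were Cox7a2l at -1.49, Ndufa4 at -1.21 and Atp5g2 at -1.01. Of the 92 members, 22 lay above the median of all genes, a count that no scaling of the libraries can change.

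In UW, superficial-like cluster 6 over basal-like cluster 3 had 4 of 92 members higher (18.1% of all genes) and 63 lower (61.0%). All genes had a median of -0.90 there, and with TMM factors, which brought it to -0.11, 19 members were higher (33.5% of all genes) and 25 lower (40.5%). Of the 92 members, 51 lay above the median of all genes. Among the 90 members with at least 100 UMIs in the 2 sums, the largest differences were in assembly factors. These were Ndufaf5 at -3.95, Ndufaf4 at -3.93, Ndufaf6 at -3.57 and Cox10, which makes heme for complex IV, at -2.80. Cox7a1 at 1.87 and Ndufa4 at 1.36 were on the other side. Mitotic-like cluster 8 over cluster 3 in UW had 4 members higher (18.8% of all genes) and 0 lower (7.69%), with TMM factors 2 and 2 (14.6% and 13.7% of all genes). Among the 89 members with at least 100 UMIs in this pair, Ndufaf2 at 1.00 had the largest ratio. In W, neutrophil-like cluster 13 over monocyte and macrophage-like cluster 14 had 4 of 88 members higher (16.9% of all genes) and 24 lower (38.8%), with TMM factors 4 and 10 (22.5% and 28.0% of all genes) and with size factors 8 and 5 (25.8% and 24.5%). Among the 78 members with at least 100 UMIs in that pair, Cox17 had the largest ratio, 1.04. Ndufv3, an accessory subunit of complex I, had the smallest of them, -0.96. The cells of cluster 13 were shallow, with a median of 2509 UMIs. Their nuclear sum, 15932 CPM, was near the 18627 CPM of cluster 14, while the mitochondrially encoded sum was 5697 against 24254 CPM.

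Other genes of the pathway were counted by the same rule, and each count is read against the 22.2% of all genes that were higher in epithelium and the 20.8% that were lower. Of complex II, 0 of 4 genes were higher and 1 lower in epithelium: Sdha, the flavoprotein subunit, with a mean of -0.50, went from 66.9 to 33.2 CPM in cluster 4 and from 69.4 to 39.4 CPM in cluster 1. Sdhd, a membrane anchor, had a mean of 0.32. The complex II sum differed in direction between clusters, with log2 ratios of 0.64 in cluster 9, 0.36 in cluster 8 and 0.25 in cluster 11, against -0.60 in cluster 4 and -0.51 in cluster 2. Cytochrome c and cytochrome c1, the carrier and the complex III subunit that hands it electrons, were both higher, with Cycs at a mean of 1.02 and Cyc1 at 0.58. Cycs went from 13.9 to 49.9 CPM in cluster 7 and from 80.9 to 177 CPM in cluster 11. Of the 13 mitochondrially encoded genes 0 were higher and 2 lower in epithelium, mt-Nd6 with a mean of -0.82 and mt-Nd3 with -0.60. In cluster 10, 7 of the 13 were lower (20.9% of all genes there) and 0 higher (12.6%), and in cluster 0, 5 were lower (26.7%) and 0 higher (15.2%).

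Of 26 assembly factors with other names tested in epithelium, 8 were higher and 1 lower. Uqcc2, a complex III assembly factor, had a mean of 1.62 and went from 147 to 418 CPM in cluster 3 and from 13.7 to 80.3 CPM in cluster 7. Sco2, a copper chaperone of complex IV, had a mean of 1.21, whereas Surf1, which also serves complex IV, was lower in W in all 12 clusters with a mean of -0.38. Of 14 mitochondrial import genes tested, 7 were higher and 0 lower: Timm10 at 1.46, Tomm40, the channel of the outer membrane, at 1.30, and Hspe1, the small partner of the mitochondrial chaperonin, at 1.17 were among them. Of 6 regulators tested in epithelium, 1 was higher and 0 lower. This was Esrra, a nuclear receptor that acts on mitochondrial genes, which had a mean of 0.77 and was higher in W in all 12 clusters. Nrf1, another such regulator, had a mean of 0.28 and Gabpa of -0.11. Ppargc1a, a coactivator of these factors, was low throughout, and was at 7.70 CPM in UW and 3.76 CPM in W in cluster 0. Of 9 genes for ATP export and proton leak, 1 was higher and 1 lower in epithelium. The lower one was Ucp2, an uncoupling protein family member, with a mean of -0.63, from 497 to 223 CPM in cluster 3. Slc25a4, an ATP and ADP carrier, was mainly stromal, with 1967 and 1659 CPM in cluster 0 against 485 and 361 CPM in cluster 3.

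Promoter sequences from RefSeq (GRCm38.p6, 250 bases before to 50 bases after the start) were found for 76 member genes and searched for short motifs on both strands. GCATGCGC, the core of the NRF1 site, was in 13.4% of the 82 promoters of these genes, against 2.71% of all 32851 promoters and 4.35% of those of genes in the table. CCGGAAG, the core bound by ETS factors such as GABPA, was in 26.8%, against 8.86% of all promoters and 14.5% of those of genes in the table. AAGATGGC, a YY1 core, was in 14.6%, against 2.75% and 3.69%. GGGCGG, the SP1 box, was in 45.1%, against 35.7% and 56.2%. ACGTG, the core of the hypoxia response element, was in 20.7%, against 19.6% and 23.5%, and TATAAA was in 8.54%, against 13.6% and 8.55%. These are counts of letters and were not tested. The promoters of 4 members with large or opposite ratios are shown as RefSeq places them, 5′ to 3′ on the gene's strand, with every match in capitals. That of Ndufa4 (chr6:11907401-11907700, minus strand), the member with the largest ranked ratio, held no match, and Atp5g1 (chr11:96075582-96075881, minus strand), also higher in W, held ACGTG 3 times, of which 2 overlap. Cox7a2l (chr17:83514284-83514583, minus strand) and Cox6a1 (chr5:115348909-115349208, minus strand), both lower in W, held GGGCGG 2 times each, and the window of Cox7a2l lies inside the gene as GENCODE draws it, downstream of its outermost start. Cox6a1 also held the ETS core and the NRF1 core on both strands in overlap. Other members held these motifs in other combinations. The promoter of Cox5a, with an epithelial mean of 0.36, held GGGCGG 2 times and also ACGTG. That of Atp5l, with a mean of -0.16, held ACGTG 2 times and no GGGCGG.
Ndufa4: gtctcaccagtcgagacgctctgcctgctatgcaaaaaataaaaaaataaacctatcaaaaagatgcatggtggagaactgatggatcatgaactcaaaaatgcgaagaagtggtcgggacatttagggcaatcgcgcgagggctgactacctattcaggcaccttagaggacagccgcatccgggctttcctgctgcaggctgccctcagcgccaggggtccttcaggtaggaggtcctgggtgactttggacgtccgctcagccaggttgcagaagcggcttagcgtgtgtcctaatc
Atp5g1: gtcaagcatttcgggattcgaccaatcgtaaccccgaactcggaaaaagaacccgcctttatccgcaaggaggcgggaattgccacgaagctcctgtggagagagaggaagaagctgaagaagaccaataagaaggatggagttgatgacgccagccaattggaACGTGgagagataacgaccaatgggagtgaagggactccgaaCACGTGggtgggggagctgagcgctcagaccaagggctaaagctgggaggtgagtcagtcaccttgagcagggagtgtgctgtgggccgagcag
Cox7a2l: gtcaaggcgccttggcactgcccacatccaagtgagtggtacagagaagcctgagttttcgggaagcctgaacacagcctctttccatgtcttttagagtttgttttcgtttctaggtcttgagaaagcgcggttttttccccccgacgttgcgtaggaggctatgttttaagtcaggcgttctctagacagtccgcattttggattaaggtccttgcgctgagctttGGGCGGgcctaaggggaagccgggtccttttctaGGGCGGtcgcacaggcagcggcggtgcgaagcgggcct
Cox6a1: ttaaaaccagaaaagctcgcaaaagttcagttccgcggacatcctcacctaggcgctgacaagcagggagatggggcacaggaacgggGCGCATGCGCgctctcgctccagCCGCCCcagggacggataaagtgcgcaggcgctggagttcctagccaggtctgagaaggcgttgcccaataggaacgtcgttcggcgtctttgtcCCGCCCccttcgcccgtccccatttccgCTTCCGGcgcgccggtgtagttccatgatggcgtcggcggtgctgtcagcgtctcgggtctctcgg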

How the data were processed

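The deposited file is a table of raw UMI counts per gene and cell, which the authors made with Cell Ranger 3.1.0 (per the labels) and filtered in Seurat. The labels list build mm9 and the methods an mm10 reference. The labels also name the v3 kit and the methods an earlier one. Coordinates here are GENCODE M21 (GRCm38). Cluster numbers and doublet calls (DoubletFinder) come from the deposited cell annotation. The methods state a doublet removal before deposit. The 305 UW and 164 W cells that deposited DoubletFinder columns still call doublets were kept, and left out in an alternative. The table holds fewer cells than the study's text gives. Cells in the table had 501 to 7570 genes. Counts were summed per cluster and library and divided by the total (CPM). Intervals were exact Poisson for sums and Clopper-Pearson for shares, both at 95%. Log2 ratios used a prior of 0.5 UMI, and no test was made with 1 library per condition. Ratio code was tested on simulated data. Thinning drew 5000 UMIs per cell. Alternatives used edgeR 4.0.16 TMM factors and DESeq2 1.42.0 size factors. Python 3.11.15, scipy 1.17.1 and R 4.3.3 were used. The members and gene lists were chosen with earlier results of these data known. Named genes were the 5 largest and 5 smallest ratios among members with at least 100 UMIs per compared pair, isoform sets, the members with most and fewest UMIs per complex, and those of the same sign in all clusters with 0.5 reached in at least 6.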

Additional observations from a re-analysis of the deposited data

Results flagged for a closer look

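Ndufa4l2 had a log2 ratio of W over UW of 2.06 as the mean of the epithelial clusters and of -0.87 in cluster 10, while it was 0.12 in stromal cluster 0. It was picked out because the ratio pointed in opposite directions in epithelium and cluster 10. The difference was not tested, since each condition is 1 library, and in UW the epithelial clusters apart from cluster 9 lie near the level of free stromal RNA. In W clusters 2, 6 and 7 also lie at or under the value of stromal cluster 0.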

How the results depend on the processing

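No paired analysis was possible because each condition is 1 library, and for the same reason no replicate could be left out. The log2 ratio of the summed level, 0.45 in epithelium, 0.28 in cluster 0 and 0.18 in cluster 10, was positive under every alternative run. In that order it was 0.36, 0.35 and 0.23 with TMM factors, 0.44, 0.37 and 0.25 with size factors, and 0.43, 0.27 and 0.20 as the mean of cell shares. It was 0.55 with the epithelial clusters summed, 0.38 in cluster 0 and 0.20 in cluster 10 without mitochondrial and ribosomal protein genes, 0.29 in cluster 0 for subunits only and 0.19 in cluster 10 with the stricter filter on cells. Chosen after seeing the data, the order gave 0.35, 0.26 and 0.15 without Ndufa4, 0.40, 0.22 and 0.13 as the median of the members, and 0.43 in epithelium without cluster 7. Counts of members past the limit depended more on the setting, and are given as higher and lower, with the shares of all genes under the same setting in parentheses. In W over UW, a log2 limit of 1 left 3 and 0 in epithelium (8.94% and 5.21%), 1 and 0 in cluster 0 (7.22% and 9.59%) and 0 and 1 in cluster 10 (4.78% and 6.54%). With TMM factors 23 were higher in epithelium (18.7%), 3 lower in cluster 0 (23.2%), and 12 and 3 in cluster 10 (14.5% and 18.3%). With size factors the counts were 26 and 2 in cluster 0 (18.2% and 22.2%) and 16 and 3 in cluster 10 (15.2% and 17.7%). A minimum of 100 CPM left 13 and 1 in epithelium (22.6% for the first), 1 lower in cluster 0 (18.6%) and 1 lower in cluster 10 (11.9%). A minimum of 100 UMIs left 3 lower in cluster 10 (15.4%). The 76 members left without assembly factors and Atp5s, called subunits here, had 2 lower in each of clusters 0 and 10 (26.7% and 20.9%). Between clusters, 0 over 3 had 3 and 3 at a limit of 1 (32.9% and 15.5%) and 8 higher at 100 CPM (38.1%). The same contrast had 4 and 37 with TMM factors (35.5% and 33.6%) and 7 and 27 with size factors (39.2% and 28.9%). For subunits 10 were higher (45.6%). Cluster 6 over 3 had 2 and 35 at a limit of 1 (12.7% and 47.3%), 2 and 38 at 100 CPM (35.0% and 46.4%), 19 and 25 with TMM factors (33.5% and 40.5%) and 26 and 20 with size factors (37.5% and 36.7%). Cluster 8 over 3 had 1 higher at a limit of 1 (8.91%), 2 higher at 100 UMIs (15.1%) and 0 higher at 100 CPM (12.6%). It had 2 and 2 with TMM factors (14.6% and 13.7%), 2 and 1 with size factors (15.6% and 11.5%) and 2 higher for subunits (18.8%). Cluster 13 over 14 had 1 lower at a limit of 1 (18.3%), 1 higher at 100 UMIs (15.8%) and 1 and 14 at 100 CPM (26.0% and 29.3%). It had 10 lower with TMM factors (28.0%), 8 and 5 with size factors (25.8% and 24.5%) and 1 higher for subunits (16.9%). The cause of these shifts was not tested. Another 72 values of these comparisons were labeled the same as in the main setting, by limits that are not given here. Of the members' summed levels in single clusters, the ranked genes' ratios and the shares of cells, 168 were labeled the same. Another 107 of these moved, and there were 0 changes of sign. Outside those values signs did change with the scaling: the mitochondrially encoded sums of clusters 1, 6 and 7, the sum of assembly factors in cluster 0, Cox7a2l in cluster 10 and AA467197 in cluster 7 were among them. The epithelial means of Uqcrh (0.01) and Atp5g2 (0.06) turned to -0.09 and -0.04 with TMM factors, which was looked at after seeing the data.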
